A study of Mus musculus with 5 samples.

Results

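B3 and B3A are subfamilies of the B3 family of short interspersed elements (SINEs), the mobile repeats whose copies are scattered through the mouse genome. The reads analysed were those that the deposited expression tables list under exactly these names, 2 of the 1038 repeat and RNA names over all tables and 2 of their 40 SINE names. The libraries hold RNA from C57BL/6J mice at postnatal day 7, and the labels name no altered allele in any group. From whole testis there was 1 library without enzyme, 1 after tobacco acid pyrophosphatase (TAP, 25 U for 1.5 h; the labels spell the name tobacco alkaline phosphatase) and 1 after 5' polyphosphatase (5Pase, 20 U for 0.5 h). From spermatogonia, the germ cells that divide by mitosis before meiosis, there were 2 replicate libraries, made after sorting for the surface protein EpCAM and treatment with RNA 5' pyrophosphohydrolase (RppH, 25 U for 1 h). Gel selection was for inserts of 115 to 255 nt, so that 1 read could cover an RNA from end to end. The labels give this window for every library. The paper's methods give it for testis and name no window for spermatogonia.

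B3 elements derive from a tRNA gene and, like their close relatives of the B2 family, carry an internal promoter for RNA polymerase III. They are older and more diverged than the young B2 subfamilies, and copies of them also lie inside longer RNA polymerase II transcripts. An RNA polymerase III transcript begins with a triphosphate, a processed fragment often begins with a monophosphate, and an mRNA begins with a cap. A ligation that needs a 5' monophosphate takes up RNA with a triphosphate only after 5Pase, TAP or RppH, and capped RNA only after TAP or RppH.

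Between 2712840 and 3307056 reads were sequenced per testis library, and 5209661 and 6426081 in the spermatogonia libraries. Levels are given as RPM, the number of reads found for every 1000000 reads of 5.8S rRNA in that library, which is the scale of the study. Beside it stands the level per 1000000 listed reads, meaning all reads that the table assigns to a name. The 2 scales part because 5.8S rRNA took 27.2% of the listed reads in untreated testis, 50.2% after TAP, 19.2% after 5Pase, and 39.1% and 25.9% in the spermatogonia replicates. The tables list no mRNA, so the tissue labels could not be checked against marker genes. In RNA from a mixed tissue, fewer cells of a type and less RNA per cell cannot be told apart.

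B3 was found in all 5 libraries. Its reads numbered 42 in untreated testis, 309 after TAP, 283 after 5Pase, and 8851 and 5971 in spermatogonia replicates 1 and 2. These correspond to 133, 576 and 1361 RPM in the testis libraries and to 7155 and 11581 RPM in spermatogonia (mean 9368 ± 3129, SD, n = 2). B3 thus had its lowest level in untreated testis and its highest in spermatogonia, and each spermatogonia replicate lay above every testis library. Per 1000000 listed reads the levels were 36.2, 289 and 262 in testis, where TAP and 5Pase came close to each other, and 2795 and 2996 in spermatogonia.

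B3A was the rarer name in every library. It had 15, 120 and 59 reads in untreated, TAP and 5Pase testis, and 1468 and 1171 reads in the spermatogonia replicates. The levels were 47.4, 224 and 284 RPM in testis, and 1187 and 2271 RPM in spermatogonia (mean 1729 ± 767, SD, n = 2). On this scale the order of the groups was that of B3. Per 1000000 listed reads, however, B3A stood higher after TAP (112) than after 5Pase (54.6), with 12.9 in untreated testis and 464 and 588 in spermatogonia. The 15 reads in untreated testis limit every ratio to that library, and the level there had a 95% counting interval from 28.6 to 78.7 RPM.

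**Figure D1:**
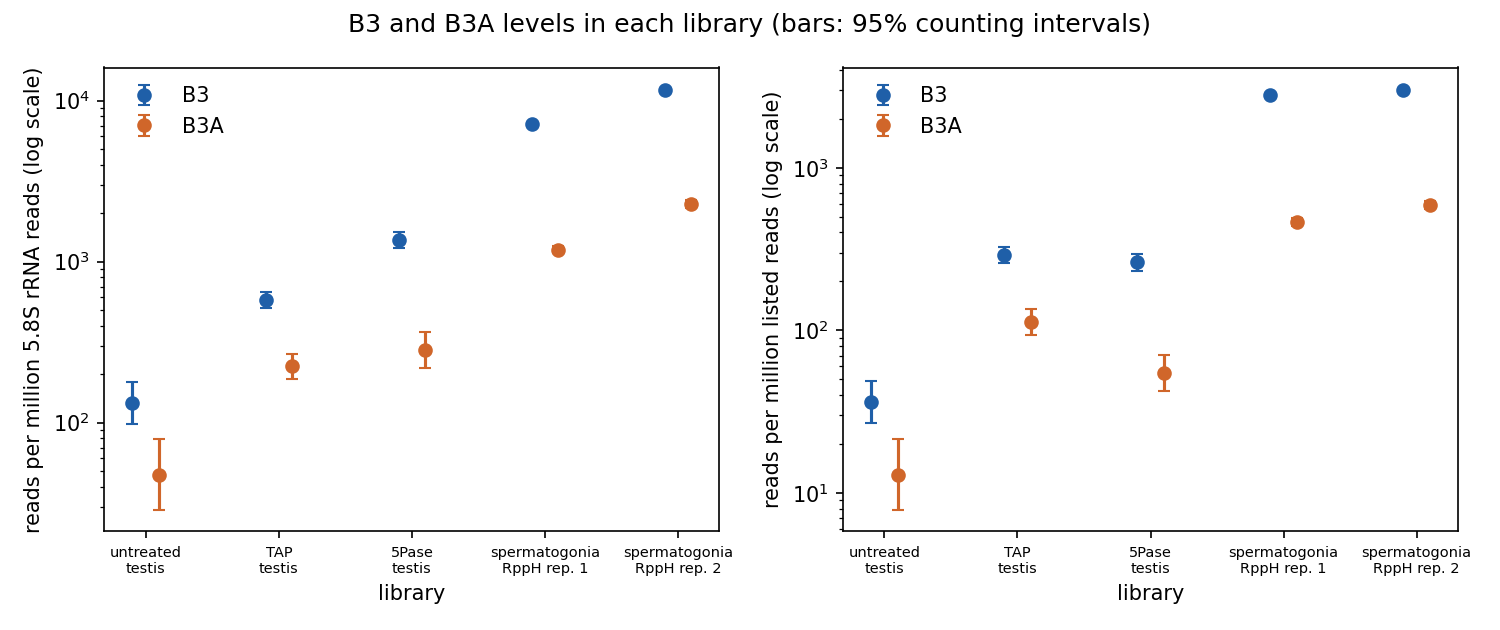
Levels of B3 (blue) and B3A (orange) in each of the 5 libraries, per 1000000 5.8S rRNA reads at left and per 1000000 listed reads at right, on log axes, with bars for 95% counting intervals (smaller than the points in spermatogonia). B3 runs from 133 to 11581 RPM and B3A from 47.4 to 2271 RPM, and both lie highest in the 2 spermatogonia libraries on either scale.

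Among the SINE names with reads, B3 held rank 7 in untreated testis, rank 2 after TAP, rank 6 after 5Pase, and ranks 6 and 8 in spermatogonia. B3A held ranks 13, 11 and 12 in testis and rank 9 in both spermatogonia libraries. B3 and B3A together made up 8.21% of SINE reads in untreated testis (Wilson 95% interval 6.39% to 10.5%), 14.9% after TAP (13.7% to 16.3%) and 10.7% after 5Pase (9.65% to 11.8%). In spermatogonia they made up 5.83% and 5.18% of SINE reads. Their share of SINE reads was thus lowest in the libraries where their own level was highest.

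The first question was which 5' ends the B3 and B3A RNAs of testis carried. Both names were higher after TAP than without enzyme. The ratio of RPM was 4.34 for B3 (95% counting interval 3.14 to 5.99) and 4.72 for B3A (2.76 to 8.07). Of the 322 names with at least 10 reads in the pair of libraries, 26.1% were at least 2-fold higher after TAP, and the median ratio was 0.59. B3A ranked 3 and B3 ranked 5 of 29 SINE names. Per listed read the ratios were 7.998 and 8.70 for B3 and B3A, where 37.5% of names were at least 2-fold higher. The 4 B2 names, whose RNAs come from the younger relatives of B3, lay between 2.83 and 3.43. The intervals from counts cover counting error only, and with 1 library per treatment none of these ratios has a replicate check.

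The ratio to untreated testis was larger still after 5Pase. It was 10.2 for B3 (7.41 to 14.2) and 5.98 for B3A (3.39 to 10.5). At least 2-fold higher after 5Pase were 41.2% of 313 names, with a median ratio of 1.76. B3 ranked 5 of 23 SINE names, next to the B2 names at 7.96 to 12.1, whereas B3A ranked 16, between B4A at 6.50 and B4 at 5.83. Per listed read the ratios of B3 and B3A were 7.23 and 4.22, with 30.3% of names at least 2-fold higher. B4 and B4A belong to another old SINE family, built from tRNA-derived and B1-like parts. The ratios of B3 and B3A to untreated testis did not differ beyond counting error from each other. The ratio of B3A divided by that of B3 was 0.58 (0.30 to 1.12) after 5Pase and 1.09 (0.58 to 2.03) after TAP.

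Set directly against each other, the enzymes gave different values for the 2 names. TAP over 5Pase was 0.42 for B3 (0.36 to 0.50) and 0.79 for B3A (0.58 to 1.08) per 5.8S rRNA read. Here 69% of 345 names were at least 2-fold lower after TAP, B3 among them and B3A not, and the median ratio of all names was 0.30. Of 30 SINE names, whose median ratio was 0.54, B3A ranked 9 and B3 ranked 18. Per listed read the same comparison gave 1.11 for B3 and 2.06 for B3A, since the 5.8S rRNA share of the listed reads was 2.61 times as high after TAP. On that scale 18.8% of names were at least 2-fold higher after TAP, B3A among them. Whether B3 and B3A as such were higher after TAP or after 5Pase therefore turned on the denominator. The order of the pair cannot change with it, because both names are divided by the same denominator.

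**Figure D2:**
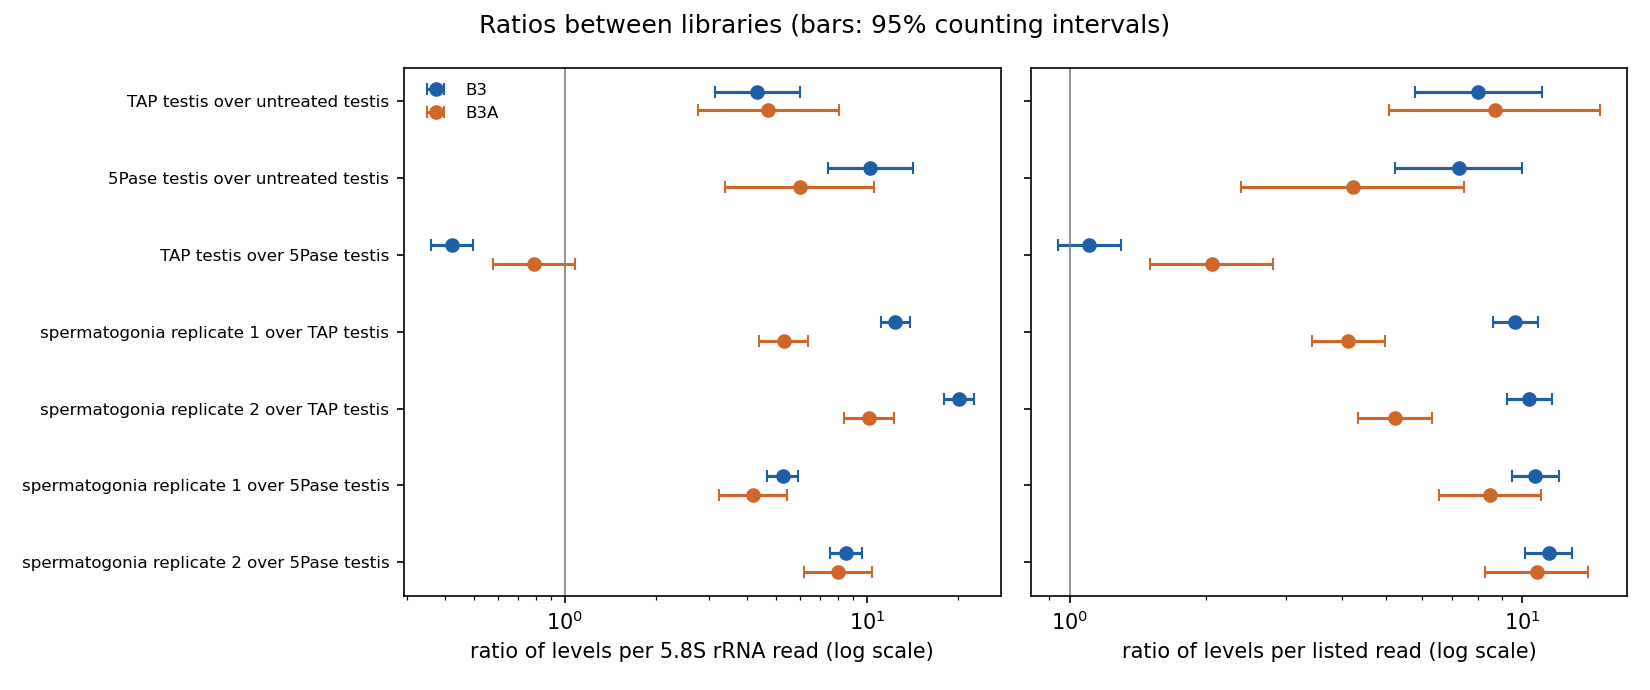
Ratios of B3 (blue) and B3A (orange) between libraries, per 5.8S rRNA read at left and per listed read at right, on log axes with a line at 1 and bars for 95% counting intervals. The TAP over 5Pase ratios move from 0.42 and 0.79 at left to 1.11 and 2.06 at right, and the ratios of spermatogonia to either testis library lie above 1 in both panels.

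The split between the 2 names needs no denominator. B3A was 26.3% of B3 and B3A reads in untreated testis (15 of 57, Wilson 95% interval 16.6% to 39.0%) and 27.97% after TAP (120 of 429, 23.9% to 32.4%). It was 17.3% after 5Pase (59 of 342, 13.6% to 21.6%). In spermatogonia it was 14.2% (1468 of 10319, 13.6% to 14.9%) in replicate 1 and 16.4% (1171 of 7142, 15.6% to 17.3%) in replicate 2, a mean of 15.3% ± 1.53 (SD, n = 2). The TAP library stood above the 5Pase library and both spermatogonia libraries without overlap of the intervals, and the wide interval of the untreated library overlapped those of TAP, 5Pase and spermatogonia replicate 2.

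Fisher's exact test, two-sided, compared the split over all 10 pairs of libraries, and it compares libraries, not conditions. TAP exceeded 5Pase testis by 10.7 percentage points (4.78 to 16.4; odds ratio 1.86, adjusted exact p = 0.0014). Spermatogonia replicates 1 and 2 differed from the TAP library by -13.7 points (-18.2 to -9.65) and -11.6 points (-16.1 to -7.44), with adjusted exact p = 5.8e-12 and 3.2e-08. Replicate 1 also differed from replicate 2, by -2.17 points (-3.27 to -1.08; adjusted exact p = 0.00031), so the spread between replicates exceeds counting error. Each difference from TAP testis was over 5 times that size. The differences from 5Pase testis, at -3.03 points (-7.44 to 0.67) for replicate 1 and -0.86 points (-5.30 to 2.88) for replicate 2, were of its order and had adjusted exact p = 0.17 and 0.73.

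Against the untreated library, with its 57 reads, the split was measured with less precision. TAP differed from it by 1.66 points (-11.6 to 12.3; adjusted exact p = 0.88) and 5Pase by -9.06 points (-22.2 to 1.54; adjusted exact p = 0.17). Spermatogonia replicate 1 differed from it by -12.1 points (-24.8 to -2.40; adjusted exact p = 0.041) and replicate 2 by -9.92 points (-22.6 to -0.21; adjusted exact p = 0.082). B3A thus had a smaller share in spermatogonia replicate 1 than in the untreated library. Replicate 2 did not pass the threshold after adjustment, and the intervals of TAP and 5Pase testis include 0.

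**Figure D3:**
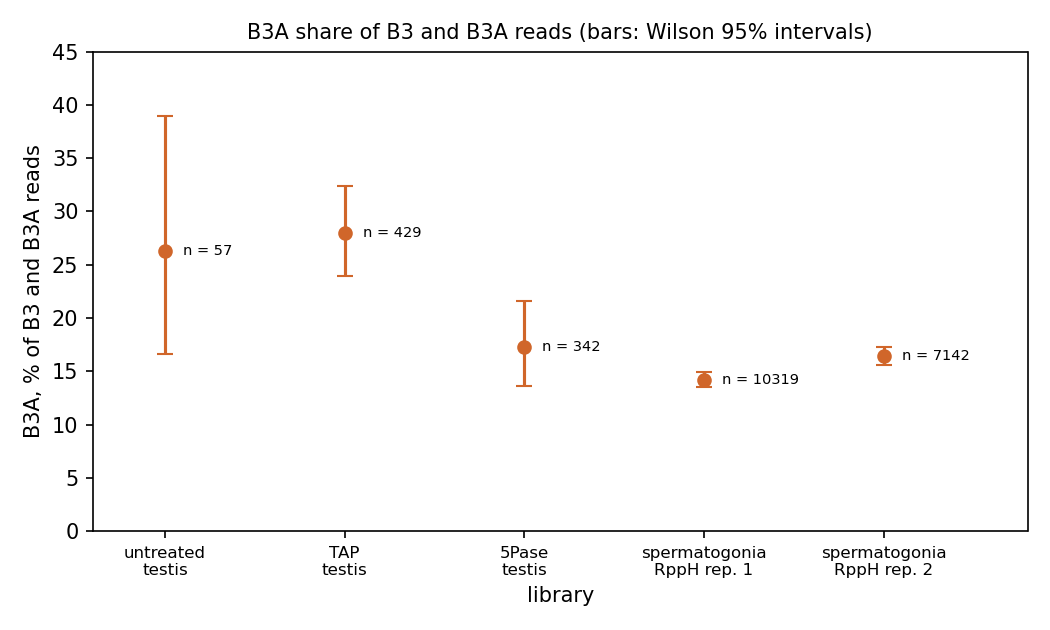
Share of B3A among B3 and B3A reads in each library, in percent, with Wilson 95% intervals as bars and the number of reads (n) beside each point. TAP testis, at 27.97%, lies above 5Pase testis at 17.3% and the spermatogonia libraries at 14.2% and 16.4%, while untreated testis, at 26.3%, has the widest interval.

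The pair of B4 names was split differently. B4A was 80.6%, 76.1% and 82.3% of B4 and B4A reads in untreated, TAP and 5Pase testis, and 75.8% and 80.3% in spermatogonia. Its odds after TAP over those after 5Pase were 0.68 (0.40 to 1.17), against 1.86 (1.31 to 2.65) for B3A over B3. The 2 intervals do not overlap, and for B4A the spermatogonia values lay on both sides of the TAP value.

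The next comparison set spermatogonia beside whole testis, where tissue, enzyme and library kit change together and cannot be told apart. B3 and B3A were higher in both spermatogonia replicates than in either treated testis library. B3 over TAP testis was 12.4 and 20.1 in replicates 1 and 2 (mean 16.3 ± 5.43, SD, n = 2), and B3A was 5.30 and 10.1 (7.72 ± 3.42). At least 2-fold higher than in TAP testis were 62% of 495 names, and the median ratio was 3.06. A name could enter this count through spermatogonia reads alone. With at least 1 read required in each library the share was 47.4%. B3 ranked 14 and B3A ranked 22 of 34 SINE names, so both stood at middle ranks of their class and below the B2 names at 46.8 to 134.

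Against 5Pase testis the 2 names came close together. The ratio was 5.26 and 8.51 for B3 (mean 6.89 ± 2.30, SD, n = 2) and 4.18 and 8.01 for B3A (6.10 ± 2.70). Higher at least 2-fold were 36.1% of 482 names, with a median ratio of 1.16, and 29% with at least 1 read required in each library. Of 32 SINE names, whose median ratio was 6.64, B3 ranked 16 and B3A ranked 18. Per listed read the ratios of B3 and B3A were 11.1 ± 0.54 and 9.63 ± 1.61 to 5Pase testis, and 10.01 ± 0.49 and 4.68 ± 0.78 to TAP testis. On that scale 48% and 48.2% of names were at least 2-fold higher, respectively. When rRNA, snRNA and snoRNA reads were left out of the listed reads, B3 was 2.85 ± 0.40 times the TAP level and 2.51 ± 0.35 times the 5Pase level. B3A was then 1.32 ± 0.028 times the TAP level, below 2-fold in both replicates (1.34 and 1.30), and 2.16 ± 0.045 times the 5Pase level. The size of the difference, though not its direction, thus rested on the denominator. SINE reads themselves weigh in the last of these denominators, and unequally. They were 176907 of its 261254 reads and 137971 of 214659 in spermatogonia replicates 1 and 2. In testis they were 2878 of 28587 after TAP and 3205 of 23060 after 5Pase.

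The spermatogonia replicates differed more per 5.8S rRNA read than per listed read. Replicate 2 over replicate 1 was 1.62 for B3 and 1.91 for B3A in RPM, and 1.07 and 1.27 per listed read. Per sequenced read it was 0.83 and 0.98, and without rRNA, snRNA and snoRNA 0.82 and 0.97. Which replicate stood higher thus turned on the denominator. For B2 the ratios in RPM and per listed read were 1.80 and 1.19, and for B1, the SINEs derived from 7SL RNA, 2.24 and 1.49. Repeat names also differed between the tables of testis and spermatogonia, since 270 names were in both, 82 in testis alone and 272 in spermatogonia alone. The spermatogonia libraries were also sequenced more deeply. They listed 874 and 772 names, against 446, 616 and 521 in untreated, TAP and 5Pase testis. Names found in 1 tissue alone may come from this depth. Reads of diverged copies may also have been offered different subfamily names in the 2 tissues. Neither was tested, nor was its part in the ratios of B3 and B3A.

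A comparison within each library put B3 and B3A beside their closest relatives. For 100 B2 reads there were 33.5 B3 and B3A reads in untreated testis (24.8 to 45.3), 46.5 after TAP (41.5 to 52.2) and 28.5 after 5Pase. In spermatogonia there were 8.03 and 7.42. B3 and B3A were therefore most frequent relative to B2 after TAP, and in both spermatogonia libraries they fell below every testis library.

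Per B2 read, TAP exceeded 5Pase testis 1.63-fold (1.38 to 1.92; Fisher's exact test, adjusted p = 1.1e-08 over 10 pairs of libraries). The difference was 1.42-fold for B3 (1.18 to 1.70) and 2.64-fold for B3A (1.91 to 3.65). The values of TAP (1.39 times the untreated value, 1.01 to 1.91, adjusted exact p = 0.058) and 5Pase (0.85 times; adjusted exact p = 0.35) against untreated testis did not pass the threshold of 0.05. Spermatogonia replicates 1 and 2 stood at 0.173 and 0.159 times the TAP value and at 0.281 and 0.26 times the 5Pase value. The replicates differed from each other 1.08-fold (adjusted exact p = 9e-07), far less than either differed from testis.

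The fall per B2 read was steeper for B3A than for B3 against TAP testis. B3 per B2 read was 0.205 and 0.185 times the TAP value in the spermatogonia replicates, and B3A was 0.0877 and 0.0934 times. Against 5Pase testis the values were 0.291 and 0.263 for B3 and 0.232 and 0.247 for B3A. Within the B2 class of the spermatogonia tables, which files B3 and B3A together with the 4 B2 names, the largest share was that of B2_Mm2. It was between 26.8% and 30.2% of the class in testis and 57.5% and 58.2% in spermatogonia, while B3 went from between 18.4% and 22.9% to 6.37% and 5.77%. B3A went from 6.61%, 8.88% and 3.83% in untreated, TAP and 5Pase testis to 1.06% and 1.13%.

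Other repeats gave other orders. Per 100 B4 reads, B3 and B3A numbered 184, 171 and 263 in untreated, TAP and 5Pase testis, and 914 and 813 in spermatogonia, so they were more frequent there relative to B4 and less frequent relative to B2. Per 100 B1 reads they numbered 27.3, 63.7 and 29.2 in testis and 33.5 and 24.8 in spermatogonia, with TAP testis standing above all other libraries. LINE and LTR fragments come from longer repeats that RNA polymerase II transcribes. Per 100 LINE reads there were 23.4 B3 and B3A reads without enzyme, 85.1 after TAP and 114 after 5Pase, and 213 and 222 in spermatogonia. Per 100 LTR reads there were 12.2, 65.1, 66.4, 275 and 310 in the same order, so that untreated testis was lowest and spermatogonia highest for both.

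**Figure D4:**
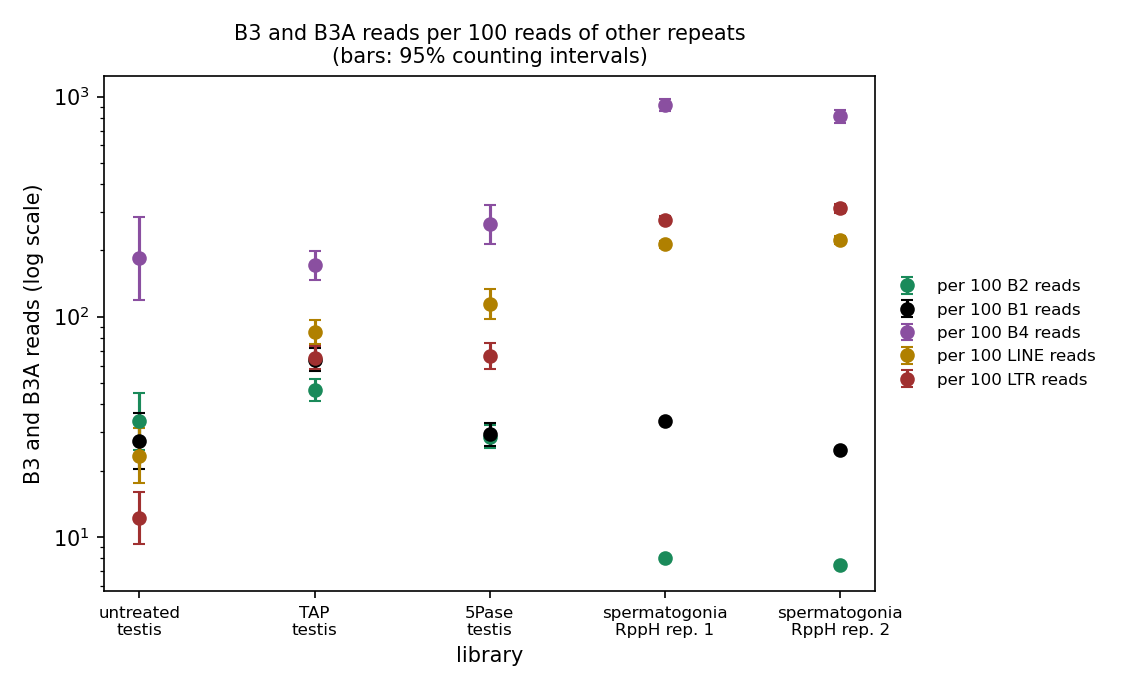
B3 and B3A reads per 100 reads of B2, B1, B4, LINE and LTR repeats in each library, on a log axis, with bars for 95% counting intervals. Relative to B2 the values fall from 46.5 in TAP testis to 8.03 and 7.42 in spermatogonia, whereas relative to B4 they rise from 171 to 914 and 813.

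B3 and B3A took places apart from each other among the SINE names when the TAP over 5Pase ratio was set beside the spermatogonia over TAP ratio. The B2 names had the values 0.28 to 0.36 and 46.8 to 134, B3 had 0.42 and 16.3, B3A had 0.79 and 7.72, and B4A had 0.69 and 2.89. B4 had 1.01 and 2.48. RSINE1, a B4-related repeat, had 0.62 and 4.31. Among these names B3 stood between the B2 names and B3A, and B3A close to the B4-related names on the enzyme axis. These places were not held by B3 and B3A alone, since older B1 subfamilies lay near them. B1_Mur2 had 0.41 and 12.7, B1_Mur4 had 0.30 and 18.5, B1_Mur3 had 0.55 and 18.7, and B1_Mur1 had 0.54 and 8.63. The axes share the TAP library, so the order along one is not independent of the order along the other.

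The counting intervals show which neighbours in that order could be separated beyond counting error. They leave out the spread between libraries, and TAP and 5Pase testis had 1 library each. For TAP over 5Pase, B3A divided by B4A was 1.14 (0.77 to 1.69) and B3A divided by RSINE1 was 1.28 (0.85 to 1.93), neither of which excludes 1. B3 divided by B2_Mm1t was 1.19 (0.89 to 1.60), while B3A divided by B2_Mm1t was 2.22 (1.49 to 3.31). B3 divided by B2_Mm1a, B2_Mm1o and B2_Mm2 was 1.49 (1.14 to 1.95), 1.50 (1.20 to 1.86) and 1.40 (1.13 to 1.73). B3 divided by B4A and RSINE1 was 0.61 (0.46 to 0.81) and 0.69 (0.50 to 0.94). For spermatogonia over TAP, B3A stood above B4A by 2.73 and 2.64 in the 2 replicates and above RSINE1 by 1.60 and 1.91, and B3 stood at 0.376 and 0.309 times B2_Mm1t. In spermatogonia both names were thus separated, beyond counting error, from B2_Mm1t, B4A and RSINE1. Between the enzymes B3 was separated in this sense from B4A, RSINE1 and every B2 name except B2_Mm1t. There B3A was separated from B2_Mm1t but not from B4A and RSINE1.

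**Figure D5:**
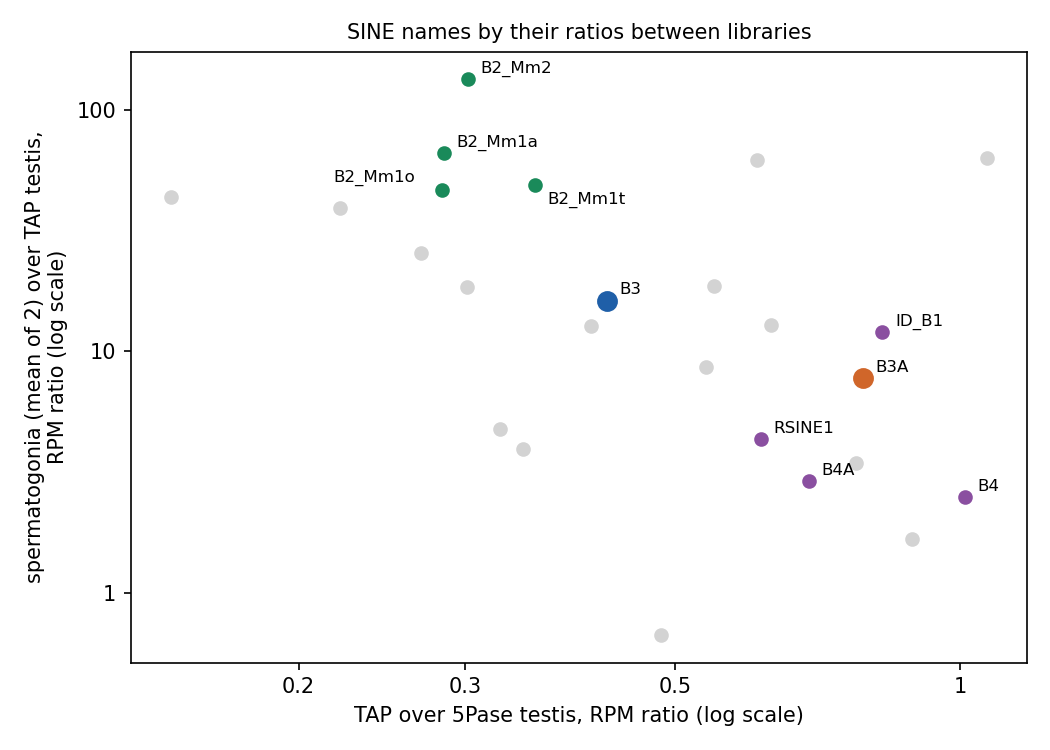
The 25 SINE names with at least 10 reads in each comparison and over 3 reads in both the TAP and the 5Pase library, by the ratio of TAP to 5Pase testis (x axis) and of spermatogonia, mean of 2 replicates, to TAP testis (y axis), both ratios of RPM on log axes. B3 (blue) lies between the B2 names (green) at the upper left and B3A (orange). On the x axis B3A lies near B4, B4A, RSINE1 and ID_B1 (purple). On the y axis it lies above B4, B4A and RSINE1 and below ID_B1. Other SINE names are grey, among them B1_Mur1, which lies close to B3A at 0.54 and 8.63.

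The names most like B3 and B3A over all 5 libraries were sought among 173 names with at least 10 reads in every library, by the root mean square (RMS) difference of the centred log2 share of listed reads. Nearest to B3 was B1_Mus1, at an RMS difference of 0.33, followed by B3A (0.49), B1_Mus2 (0.51), an alanine tRNA with the anticodon AGC (0.57) and B2_Mm1o (0.62). Nearest to B3A was B3 (0.49), followed by RSINE1 (0.59), B1_Mus1 (0.65), the same alanine tRNA (0.72) and B4A (0.74). B1_Mus1 was thus closer to B3 than B3A was. Its reads numbered 52, 200 and 288 in untreated, TAP and 5Pase testis and 7672 and 6663 in spermatogonia.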

How the data were processed

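The values were counts: for each melRNA-seq library the authors deposited how many reads fell on each repeat or RNA name. The authors trimmed adaptors with Cutadapt and assigned reads with RepeatMasker, adding B2_Mm1o to its subfamilies. The versions and the repeat library are not given in the sources used here. Near-identical subfamilies may exchange reads. The counts carry no strand, position or read length, so no coordinates or sequences are printed. Since 1 read is 1 whole RNA, counts were not divided by length. For spermatogonia, the labels and the methods differ in RNA amount and kit. The labels name separate replicates without stating whether they came from separate animals. Replicate counts differed beyond sampling noise, so they were kept as 2 samples. The chi-square per degree of freedom was 41.8 over the 6 names of the B2 class. Over all 513 names with at least 10 reads it was 496.

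Names were matched exactly, after any text behind a slash was dropped. B2 was B2_Mm1a, B2_Mm1t, B2_Mm1o and B2_Mm2, B1 was 10 subfamilies, and B4 was B4 and B4A. Levels were computed per 1000000 5.8S rRNA reads and per 1000000 listed reads. Ratios have 95% intervals from the log ratio and shares have Wilson intervals. Pairs of libraries were compared with Fisher's exact test, two-sided, with Benjamini-Hochberg adjustment over 10 pairs, and differences of shares have Newcombe intervals. Tissues and treatments were not tested against each other, for want of replicate testis libraries. The background is the share of names, among those with at least 10 reads in the libraries compared, whose ratio passed 2-fold. Counts of 3 or fewer gave bounds. Named beside B3 and B3A were fixed SINE lists, LINE, LTR, 5S and 5.8S rRNA, and the 5 names closest in pattern to each. RSINE1 was compared further because it was among these. The members, lists and tests were chosen with earlier results of these data known. The interval and Fisher steps were tested on simulated counts with known ratios. Those counts held sampling noise alone, so they do not show how the steps behave under the larger spread between real replicates.

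Alternatives were other denominators, 1 added read, each name alone, each spermatogonia replicate left out, B1, B4 or B2_Mm2 as reference, and other minimum counts and folds. A background over names listed for both tissues was added after seeing the data. Python 3.11.15, numpy 2.4.6, scipy 1.17.1, statsmodels 0.14.6 and matplotlib 3.10.9 were used.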

Additional observations from a re-analysis of the deposited data

How the results depend on the processing

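With 1 library per testis treatment, counts set the precision and no treatment difference has a replicate check. For B3 and B3A together, TAP over untreated testis was 4.44 and became 8.18 per listed read and 7.17 per sequenced read. The 5Pase over untreated ratio was 9.12 and became 6.44 per listed read, 4.22 without rRNA, snRNA and snoRNA, and 5.98 for B3A alone. TAP over 5Pase was 0.49 (0.79 for B3A alone) and turned to 1.27 per listed read, 1.03 per sequenced read and 1.01 without rRNA, snRNA and snoRNA. B3 alone turned to 1.11 per listed read, and B3A alone to 2.06, 1.67 and 1.64 on these 3 scales. Spermatogonia over TAP was 13.9 and became 8.52 per listed read, 2.42 without rRNA, snRNA and snoRNA (1.32 for B3A), and 7.72 for B3A alone. Over 5Pase it was 6.75 and became 10.8 per listed read, 11.8 per sequenced read and 2.45 without rRNA, snRNA and snoRNA. These changes follow from the denominators, whose shares differ between libraries.

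Leaving out either spermatogonia replicate gave 10.4 to 17.3 over TAP and 5.07 to 8.42 over 5Pase, a level of 8342 to 13852 RPM, a B3A share of 14.2% to 16.4% and 7.42 to 8.03 reads per 100 B2 reads. With B1 in place of B2 as reference, TAP over untreated became 2.34 and passed the threshold, 5Pase over untreated turned to 1.07, spermatogonia replicate 1 turned to 1.23 over untreated and 1.15 over 5Pase, and replicate 2 over untreated, at 0.91, no longer passed. With B4, TAP over untreated turned to 0.93, 5Pase over untreated to 1.43 and TAP over 5Pase to 0.65. The spermatogonia ratios with B4 turned to 4.97 and 4.42 over untreated, 5.35 and 4.76 over TAP, and 3.47 and 3.09 over 5Pase in replicates 1 and 2. With B2_Mm2 alone none of these ratios changed its direction or its side of the threshold. At 4-fold the background fell to 12.7% higher and 29.2% lower for TAP over untreated, 25.9% and 0.639% for 5Pase over untreated, 1.74% and 41.7% for TAP over 5Pase, and 22.8% higher for spermatogonia over 5Pase. Per listed read it was 5.73% lower for 5Pase over untreated, and 18.8% higher and 35.3% lower for TAP over 5Pase. With at least 1 read required in each library, the 2-fold background was 18.6% higher for TAP over untreated and 34.5% higher for 5Pase over untreated. For TAP over 5Pase it was then 71.2% lower. No paired analysis was possible because replicate numbers are given for spermatogonia alone.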

Other observations

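Relative to 5S rRNA, which RNA polymerase III also transcribes, the 2 spermatogonia libraries stood apart. They held 10319 and 7142 B3 and B3A reads beside 19805 and 35245 5S rRNA reads. Per 100 5S rRNA reads this gave 52.1 B3 and B3A reads in replicate 1 and 20.3 in replicate 2, against 1.79 in untreated, 1.91 in TAP and 2.27 in 5Pase testis. The 5S rRNA level itself differed between the replicates. Per 5.8S rRNA read it was 0.38 times the TAP testis level in replicate 1 and 1.63 times in replicate 2. For B3 and B3A reads per LINE read, the replicates differed by a factor of 0.96 (0.91 to 1.01).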
